A study of Homo sapiens with 4 samples.

Results

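The kinetochore, spindle and mitotic exit genes described here are 57 genes that build and run the mitotic spindle, chosen by name from the gene count table of U251 cells, an established human glioblastoma (GBM) cell line. The table holds 15575 genes, and all 57 members were found in it and passed the filter on low counts, which 13172 genes passed. A total of 56 members were found by the listed symbol, and SGOL1 was found under its current symbol SGO1. The members fall into 20 centromere and kinetochore genes, 5 spindle assembly checkpoint genes, 8 mitotic kinases and chromosomal passenger subunits, 12 kinesins and spindle proteins, 7 genes of mitotic entry, the anaphase-promoting complex and sister separation, 2 chromosome structure genes, 2 transcription factors and the centrosomal gene SSNA1. RNA-seq compared 2 Ctrl libraries with 2 PRMT3-KD libraries 72 h after lentiviral delivery of a control or a PRMT3 short hairpin RNA (shRNA), which lowers the messenger RNA of the arginine methyltransferase PRMT3. The sample titles add the name pGreen to the Ctrl libraries. Both groups are the same cell line, no other treatment is given, the hairpin used for the PRMT3-KD libraries is not named in the sources used here, and nothing states that libraries of a group came from separate cultures, so p-values measure only the spread between these libraries, which may be technical.

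In a dividing cell, the kinetochore assembles on centromeric chromatin marked by the histone CENPA. An inner network of CENP proteins holds an outer layer, in which the NDC80 complex binds the ends of microtubules. Kinesin motors and microtubule-binding proteins shape the spindle, and Aurora and Polo-like kinases correct faulty attachments. While any kinetochore lacks microtubules, the spindle assembly checkpoint holds back CDC20, the activator of the anaphase-promoting complex. Once released, that ubiquitin ligase removes securin (PTTG1), and separase (ESPL1) opens the rings of cohesin between sister chromatids. Most of these genes are transcribed in G2 and M phase under the transcription factors FOXM1 and MYBL2 and the MuvB complex, through promoter elements called cell cycle genes homology regions (CHR), and many of them are abundant in fast-growing gliomas.

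The promoter sequences of 7 members are shown because they carry these elements close to the gene start and belong to different roles, from separase and spindle motors to the checkpoint. Each is the 80 bases before the gene start of RefSeq (build GRCh38.p14), written 5′ to 3′ on the strand of the gene, and capitals mark a CHR core (TTTGAA or TTCGAA) or a CCAAT box, the binding motif of NF-Y, on either strand. ESPL1 lies at chr12:53268219-53268298 (+), KIF11 at chr10:92593050-92593129 (+), KIF18A at chr11:28108157-28108236 (-), KIF15 at chr3:44761714-44761793 (+), BUB1B at chr15:40160989-40161068 (+), CDC20 at chr1:43358901-43358980 (+) and PLK1 at chr16:23678809-23678888 (+).
ESPL1: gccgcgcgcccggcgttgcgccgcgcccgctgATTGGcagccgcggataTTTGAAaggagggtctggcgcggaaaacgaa
KIF11: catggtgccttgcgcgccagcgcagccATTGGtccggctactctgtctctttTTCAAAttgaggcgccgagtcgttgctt
KIF18A: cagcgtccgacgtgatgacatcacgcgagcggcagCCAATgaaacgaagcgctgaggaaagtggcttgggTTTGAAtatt
KIF15: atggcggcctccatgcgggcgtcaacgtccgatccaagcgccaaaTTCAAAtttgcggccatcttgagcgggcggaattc
BUB1B: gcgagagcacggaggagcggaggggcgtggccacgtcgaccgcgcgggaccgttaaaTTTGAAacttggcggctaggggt
CDC20: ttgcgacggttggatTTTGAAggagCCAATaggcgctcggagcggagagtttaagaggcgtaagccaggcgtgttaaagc
PLK1: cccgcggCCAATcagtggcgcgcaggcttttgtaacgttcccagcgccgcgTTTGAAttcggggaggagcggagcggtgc
In these windows the first base of the CHR core lies 31 bases before the start in ESPL1, 28 in KIF11, 10 in KIF18A, 35 in KIF15, 23 in BUB1B, 65 in CDC20 and 29 in PLK1. A CCAAT box accompanies it in ESPL1, KIF11, KIF18A, CDC20 and PLK1.

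Across all 4 libraries the count totals were 24804250 to 29756313. The 2 Ctrl libraries differed by little more than counting noise, with a ratio of chi-square to degrees of freedom of 1.41 (13148 genes), whereas that ratio was 66.0 for the 2 PRMT3-KD libraries (13142 genes). PRMT3 itself had 535 counts in each Ctrl library and 77 and 45 counts in PRMT3-KD libraries 1 and 2, so the target of the hairpin went with the labels. Of 7 glial markers, OLIG2 was not listed and S100B was low at 1.93 to 2.82 CPM (counts after TMM normalisation, scaled by library size), while VIM lay between 4453 and 5399, CD44 between 1645 and 2271, NES between 459 and 826 and SOX2 between 132 and 173 CPM. GFAP had 13.1 and 14.3 CPM in Ctrl and 1.26 and 5.39 CPM in PRMT3-KD libraries, a log2 fold change of -2.03 (adjusted p = 0.0958, edgeR), and its part in the results was not tested. Of 6 markers of other cells, EPCAM, PECAM1 and RBFOX3 were not listed and the 3 that were listed summed to at most 0.528 CPM.

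All 57 members had a lower mean in PRMT3-KD than in Ctrl libraries. By edgeR's quasi-likelihood test at an adjusted p under 0.05, 33 of the 57 fell, and the other 24 did not pass, whereas 8.91% of all genes tested were called lower. No member was called higher, and all 57 estimates were negative, beside 8.39% of all genes tested that were called higher. The median log2 fold change over the members was -0.74, which is 60.1% of the Ctrl level, and over all genes tested it was 0.0055. Called decreases of over 1.5-fold were seen for 30 members, against 5.97% of all genes tested, and of over 2-fold for 10 members, against 2.16%. DESeq2, the tool of the study, called 46 members lower and 0 higher, against 10.8% of all genes called lower. Because RNA was extracted from whole cultures, fewer cells in G2 and M phase and less RNA per cell cannot be told apart. By flow cytometry at an earlier time, the study reported an arrest of PRMT3-knockdown U251 cells in G2 and M phase. These libraries hold no measure of cell cycle phase, and how that arrest relates to the member levels was not tested. The proliferation marker MKI67 moved with the members, at 898 and 904 CPM in Ctrl and 520 and 410 CPM in PRMT3-KD libraries, and its part in the result was not tested.

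**Figure D1:**
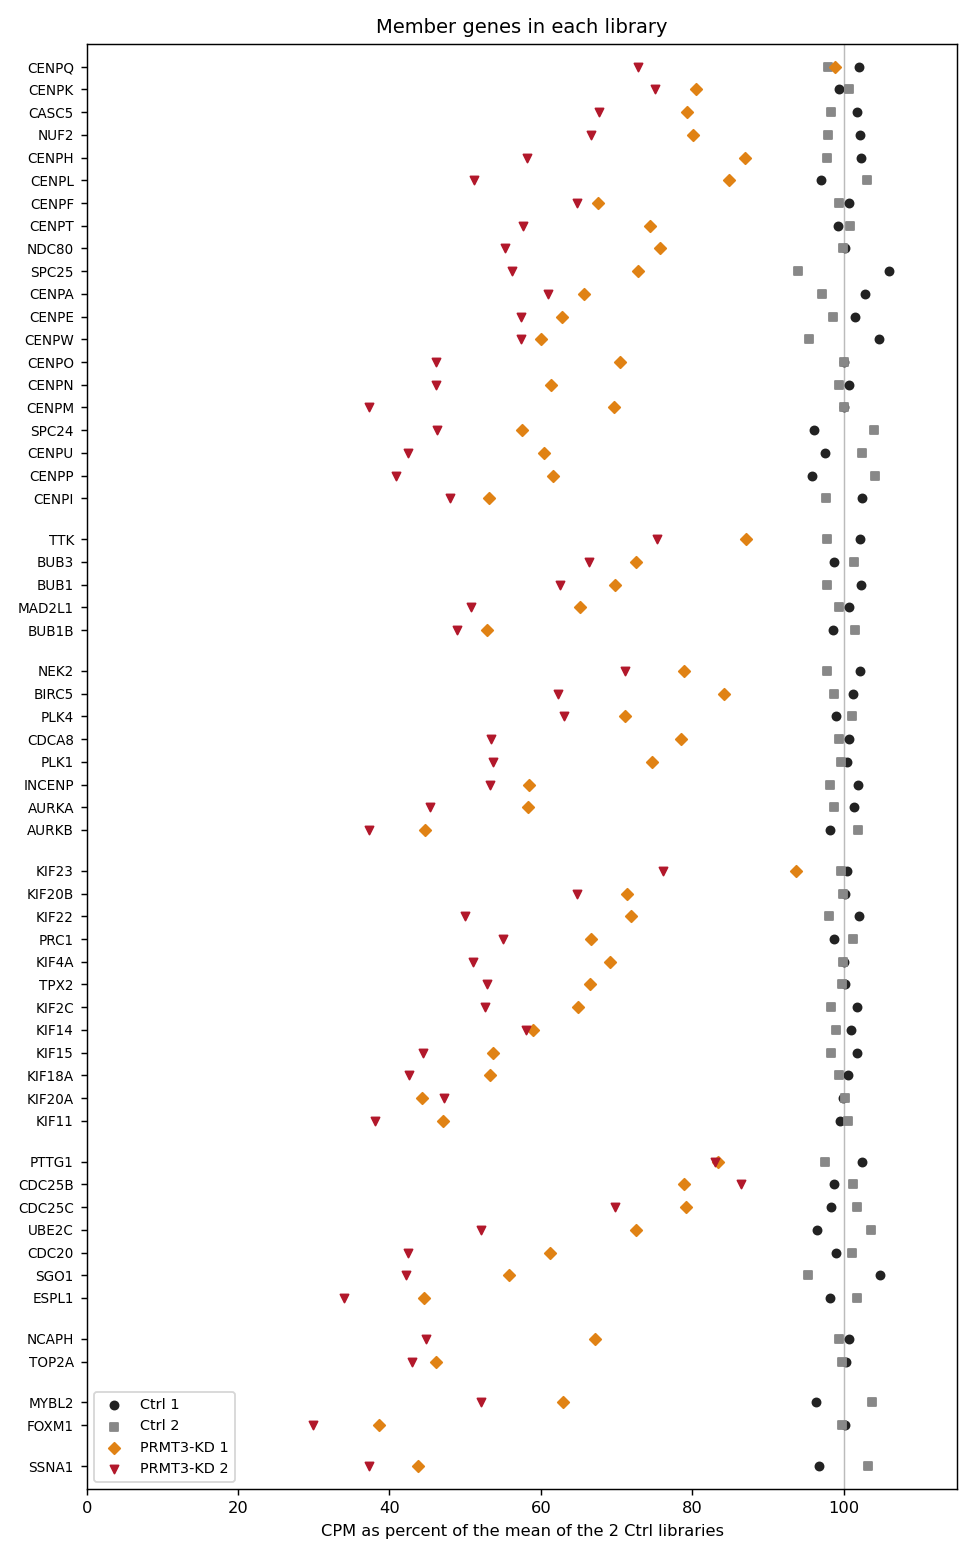
Level of each of the 57 members (rows, ordered by role and fold change) in the 4 libraries, as percent of the mean CPM of the 2 Ctrl libraries on the x axis. Circles and squares are Ctrl libraries, diamonds and triangles PRMT3-KD libraries 1 and 2, and CENPQ is the single row where the groups overlap.

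In 56 of the 57 members both PRMT3-KD libraries lay below both Ctrl libraries, and CENPQ was the exception. The same order was seen in 33.8% of all genes tested. Summed over the members, expression was 6668 and 6652 CPM in Ctrl libraries 1 and 2 and 4294 and 3598 CPM in PRMT3-KD libraries 1 and 2. The decrease was deeper in PRMT3-KD library 2, where the median difference from the Ctrl mean was -0.92 on the log2 scale, than in library 1, where it was -0.57. Library 2 was the lower of the pair in 55 of 57 members (96.5%), KIF20A and CDC25B being the exceptions, and in 53.6% of all genes tested. PRMT3 itself had 3.03 CPM in library 1 and 1.58 CPM in library 2, and its part in the difference between these libraries was not tested.

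How many members passed depended on the Ctrl libraries. Without Ctrl 1 or without Ctrl 2, 0 members and 0 of all genes tested passed in edgeR, since the spread was then estimated from the PRMT3-KD pair alone. With any library left out, the median over the members stayed between -0.92 and -0.58. Without PRMT3-KD library 1 all 57 members were called lower, and without library 2, 56 were, alongside 8841 and 8809 of all genes called in either direction. With 2 libraries in each group, the smallest p of a two-sided exact permutation test is 0.333, so that test cannot call any member. The calls given here rest on models that share information across genes.

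**Figure D2:**
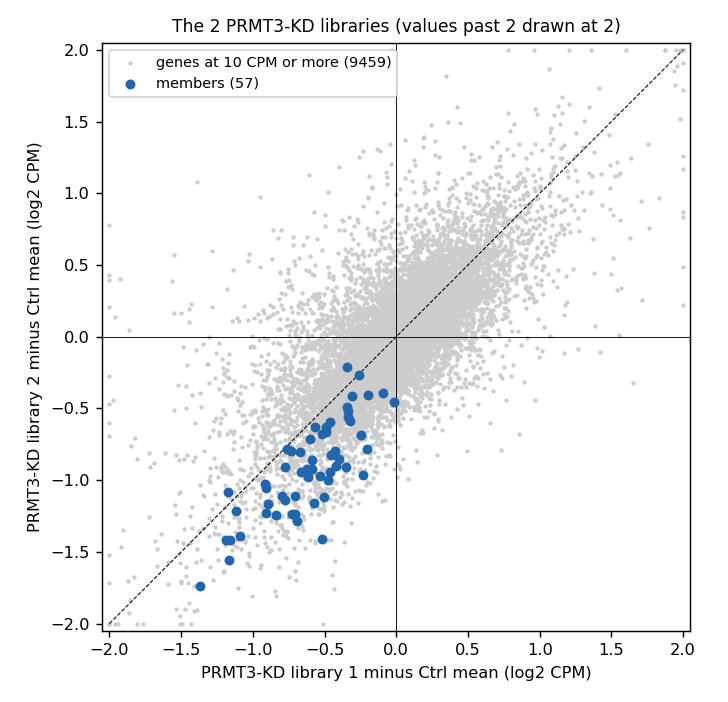
Difference of each PRMT3-KD library from the Ctrl mean in log2 CPM, library 1 on the x axis and library 2 on the y axis, for the 57 members (blue) over 9459 genes whose mean was 10 CPM or more (grey). Members lie below 0 on both axes, and 55 of them lie under the dashed line of equal change.

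FOXM1 and MYBL2, transcription factors that drive G2 and M phase genes, both fell. FOXM1 (ENSG00000111206, chr12:2966846-2986340 in GRCh37) had 300 and 298 CPM in Ctrl libraries and 116 and 89.4 CPM in PRMT3-KD libraries. Its levels did not overlap between groups, and the log2 fold change of -1.54 ± 0.143 (SE, n = 2 libraries per group, adjusted p = 0.0160, edgeR) was the largest decrease among the members. MYBL2, the B-MYB subunit that joins the MuvB complex, had 149 and 160 CPM in Ctrl and 97.1 and 80.4 CPM in PRMT3-KD libraries, again without overlap. Its log2 fold change was -0.80 ± 0.119 (SE, adjusted p = 0.0250, edgeR). Among the 5 MuvB core genes, 0 were called in either direction, and their median log2 fold change was -0.11.

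**Figure D3:**
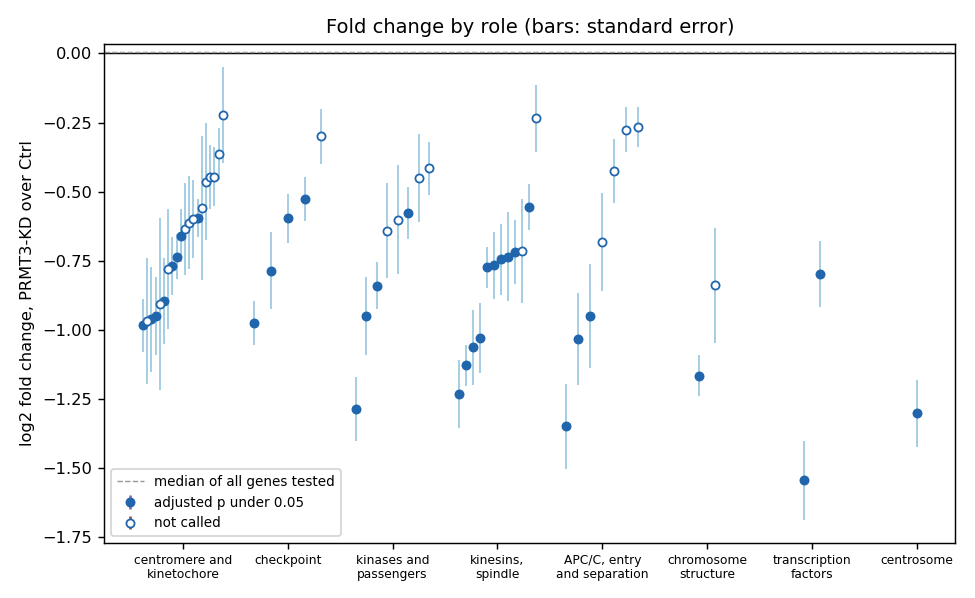
Log2 fold change of PRMT3-KD over Ctrl (y axis) for the 57 members by role (x axis), with bars of 1 standard error, filled where the adjusted p of edgeR's test was under 0.05 and open where it was not. Every value is under 0, from -1.54 for FOXM1 to -0.22 for CENPQ.

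Among the 20 centromere and kinetochore genes, 8 fell and 12 did not pass the test, with a median log2 fold change of -0.65. The inner centromere network, 12 subunits from CENPH to CENPW that sit on CENPA chromatin, had 4 called members and a median of -0.77. CENPI, a subunit of this network, had 48.4 and 46.1 CPM in Ctrl and 25.1 and 22.7 CPM in PRMT3-KD libraries. Its groups were well apart, with a log2 fold change of -0.98 ± 0.0970 (SE, adjusted p = 0.0172, edgeR). CENPU, which recruits Polo-like kinase to the kinetochore, went from 38.1 and 40.1 to 23.6 and 16.6 CPM (log2 fold change -0.96, adjusted p = 0.0405, edgeR). CENPN, which reads the CENPA nucleosome, went from 62.6 and 61.8 to 38.1 and 28.7 CPM (log2 fold change -0.90, adjusted p = 0.0323, edgeR). In both genes the 2 PRMT3-KD libraries differed from each other far more than the 2 Ctrl libraries did, but stayed below them. CENPW, the histone-fold partner of CENPT, also fell, by 0.77 on the log2 scale. CENPT had a log2 fold change of -0.60 and was not called by edgeR (adjusted p = 0.0549), but DESeq2 called it lower (adjusted p = 0.00777). Whether these partners differed in their change was not tested.

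Other subunits of the inner network had decreases of similar size that did not pass the test. CENPP, the lowest member per length at 4.61 TPM (transcript level corrected for length) in Ctrl libraries, had 14.2 and 15.5 CPM in Ctrl and 9.13 and 6.05 CPM in PRMT3-KD libraries, and its log2 fold change of -0.97 missed the threshold (adjusted p = 0.0547, edgeR). CENPM had 19.9 CPM in both Ctrl libraries and 13.9 and 7.43 CPM in PRMT3-KD libraries, with a log2 fold change of -0.91 and the largest standard error of all members, 0.310 (adjusted p = 0.112, edgeR). In each of them the PRMT3-KD libraries lay below Ctrl but apart from each other. DESeq2 called both lower (adjusted p = 0.00471 for CENPP and 0.0235 for CENPM). At the other end, CENPK had 26.3 and 26.7 CPM in Ctrl and 21.3 and 19.9 CPM in PRMT3-KD libraries (log2 fold change -0.36, adjusted p = 0.0646, edgeR). CENPQ had 19.9 and 19.1 CPM in Ctrl and 19.2 and 14.2 CPM in PRMT3-KD libraries (log2 fold change -0.22, adjusted p = 0.411, edgeR), so that PRMT3-KD library 1 fell between the Ctrl libraries.

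The histone CENPA, the foundation of the kinetochore, fell from 34.4 and 32.5 CPM to 22.0 and 20.4 CPM, a log2 fold change of -0.66 (adjusted p = 0.0242, edgeR). In the outer layer, the motor CENPE fell by 0.74 and CENPF, a large protein of G2 and M phase nuclei, by 0.60 on the log2 scale. Of the 4 subunits of the NDC80 complex, SPC24, which anchors the complex on the inner side, was the only member called by edgeR, with 30.1 and 32.6 CPM in Ctrl and 18.0 and 14.5 CPM in PRMT3-KD libraries (log2 fold change -0.95, adjusted p = 0.0250, edgeR). NDC80, NUF2 and SPC25 had log2 fold changes of -0.61, -0.45 and -0.63 and adjusted p between 0.0654 and 0.0723 by edgeR, and DESeq2 called all of them lower. Whether the subunits differed from each other in their change was not tested. CASC5 (KNL1), the scaffold that receives BUB1 and BUB3, had 59.3 and 57.3 CPM in Ctrl and 46.2 and 39.5 CPM in PRMT3-KD libraries and was not called (adjusted p = 0.0566, edgeR). By DESeq2 it was called lower (adjusted p = 0.0367).

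In the spindle assembly checkpoint, 4 of 5 members fell. BUB1B (BubR1), a subunit of the inhibitor that binds CDC20, had 107 and 110 CPM in Ctrl and 57.2 and 53.0 CPM in PRMT3-KD libraries. These levels were close within each group and far apart between them, with a log2 fold change of -0.97 ± 0.0798 (SE, adjusted p = 0.0142, edgeR). MAD2L1 (MAD2), another subunit of that inhibitor, went from 84.6 and 83.5 to 54.8 and 42.7 CPM, a log2 fold change of -0.79 (adjusted p = 0.0333, edgeR). The kinase BUB1 had 132 and 126 CPM in Ctrl and 90.1 and 80.6 CPM in PRMT3-KD libraries, and its partner BUB3 had 209 and 214 against 154 and 140 CPM, with log2 fold changes of -0.60 and -0.53. Neither gene overlapped between groups. TTK (MPS1), the kinase that starts the checkpoint signal, had 85.5 and 81.9 CPM in Ctrl and 72.9 and 63.1 CPM in PRMT3-KD libraries and was the member not called (log2 fold change -0.30, adjusted p = 0.107, edgeR).

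Of the 8 kinases and chromosomal passenger subunits, 4 fell and the median log2 fold change was -0.62. AURKB (ENSG00000178999, chr17:8108051-8113918 in GRCh37), the kinase of the chromosomal passenger complex, had 70.2 and 72.8 CPM in Ctrl and 31.9 and 26.7 CPM in PRMT3-KD libraries. The groups stood apart, with a log2 fold change of -1.29 ± 0.115 (SE, adjusted p = 0.0154, edgeR). AURKB and SSNA1 were named by the study from these same libraries, so their direction is not independent evidence. Without both, 31 of 55 members were called lower and the median was -0.74. The members as a whole were chosen with earlier results of these data known, so this count is not independent evidence either. By gene set enrichment on these data, the study had itself reported cell cycle genes as lower after the knockdown. INCENP, the scaffold of the passenger complex, went from 105 and 101 to 60.1 and 54.7 CPM (log2 fold change -0.84, adjusted p = 0.0172, edgeR). The passenger subunits CDCA8 (borealin) and BIRC5 (survivin) had log2 fold changes of -0.60 and -0.45 and were not called (adjusted p = 0.104 and 0.121, edgeR). BIRC5 had 157 and 153 CPM in Ctrl and 131 and 96.7 CPM in PRMT3-KD libraries, so its 2 PRMT3-KD values were far apart. Of the 4 passenger subunits, edgeR thus called 2, DESeq2 also called CDCA8, and limma-voom with group weights called CDCA8 and BIRC5 as well.

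AURKA, which acts at the spindle poles, had 140 and 136 CPM in Ctrl and 80.6 and 62.7 CPM in PRMT3-KD libraries, a log2 fold change of -0.95 ± 0.140 (SE, adjusted p = 0.0246, edgeR). PLK4, the kinase that starts centriole duplication, went from 63.4 and 64.7 to 45.6 and 40.4 CPM (log2 fold change -0.58, adjusted p = 0.0291, edgeR). Both were lower in each PRMT3-KD library. PLK1, which acts at entry, at kinetochores and at exit, had 160 and 159 CPM in Ctrl and 119 and 85.6 CPM in PRMT3-KD libraries. Those groups did not overlap either, but the log2 fold change of -0.64 did not pass edgeR's test (adjusted p = 0.0710) and passed DESeq2's (adjusted p = 0.00783). NEK2, a kinase of centrosome separation, had 41.5 and 39.8 CPM in Ctrl and 32.1 and 28.9 CPM in PRMT3-KD libraries (log2 fold change -0.42, adjusted p = 0.0534, edgeR).

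Kinesins and spindle proteins held the largest share of calls among the role groups of more than 5 genes, with 10 of 12 lower and a median log2 fold change of -0.76. KIF11 (Eg5), the motor that pushes spindle poles apart, had 204 and 206 CPM in Ctrl and 96.6 and 78.3 CPM in PRMT3-KD libraries. The decrease was clear in each library, with a log2 fold change of -1.23 ± 0.122 (SE, adjusted p = 0.0172, edgeR). KIF15, which helps to keep the spindle bipolar, went from 33.1 and 32.0 to 17.4 and 14.5 CPM (log2 fold change -1.03, adjusted p = 0.0202, edgeR). KIF18A, which damps the movements of chromosomes at the metaphase plate, went from 46.1 and 45.6 to 24.4 and 19.5 CPM (log2 fold change -1.06, adjusted p = 0.0207, edgeR). None of these motors overlapped between the groups.

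KIF20A, a motor of the central spindle in cytokinesis, had 195 and 196 CPM in Ctrl and 86.7 and 92.2 CPM in PRMT3-KD libraries, a log2 fold change of -1.13 ± 0.0733 (SE, adjusted p = 0.0140, edgeR). Its 2 PRMT3-KD values were close, unlike those of most members. Further called genes were KIF14, KIF2C, KIF4A and KIF20B among the motors, TPX2, which activates AURKA on the spindle, and PRC1, which bundles the midzone, with log2 fold changes between -0.77 and -0.56. KIF20B, the called motor with the smallest decrease, had 128 and 127 CPM in Ctrl and 91.0 and 82.6 CPM in PRMT3-KD libraries. KIF23, the central spindle motor of the centralspindlin complex, had 223 and 221 CPM in Ctrl and 208 and 169 CPM in PRMT3-KD libraries and was not called (log2 fold change -0.24, adjusted p = 0.229, edgeR). KIF22, a chromosome-arm motor, had a log2 fold change of -0.71 and was not called either (adjusted p = 0.0678, edgeR), but DESeq2 called it lower (adjusted p = 0.00541).

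Of the 7 genes of mitotic entry, the anaphase-promoting complex and sister separation, 3 fell and 4 were not called, with a median log2 fold change of -0.68. ESPL1 (ENSG00000135476, chr12:53662083-53687422 in GRCh37), the protease separase, had 60.8 and 63.0 CPM in Ctrl and 27.6 and 21.0 CPM in PRMT3-KD libraries. Its PRMT3-KD levels were under those of Ctrl in both libraries, and the log2 fold change was -1.35 ± 0.153 (SE, adjusted p = 0.0192, edgeR). SGO1 (shugoshin), which shields centromeric cohesin, went from 39.6 and 36.0 to 21.1 and 15.9 CPM (log2 fold change -1.03, adjusted p = 0.0284, edgeR). CDC20, the most abundant member per length at 392 TPM in Ctrl libraries, went from 248 and 254 to 153 and 106 CPM (log2 fold change -0.95, adjusted p = 0.0409, edgeR). Its call was lost when library totals replaced the scaling factors (adjusted p = 0.0552, edgeR).

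The inhibitor of separase was not called. PTTG1 (securin) had 98.0 and 93.3 CPM in Ctrl and 79.7 and 79.3 CPM in PRMT3-KD libraries, with a log2 fold change of -0.27 ± 0.0719 (SE, adjusted p = 0.0711, edgeR). Per length, PTTG1 was 344 TPM in Ctrl and 284 TPM in PRMT3-KD libraries, and ESPL1 was 24.1 and 9.41 TPM. Whether ESPL1 and PTTG1 differed in their change was not tested, and reads of PTTG1 can be shared with its near-identical copies PTTG2 and PTTG3P. CDC25B, a phosphatase that starts mitosis, had 196 and 201 CPM in Ctrl and 156 and 171 CPM in PRMT3-KD libraries (log2 fold change -0.28, adjusted p = 0.0822, edgeR). Its relative CDC25C had a log2 fold change of -0.43, and UBE2C, the ubiquitin-conjugating enzyme of the anaphase-promoting complex, one of -0.68, and neither was called (adjusted p = 0.0710 and 0.0661, edgeR). DESeq2 called UBE2C lower (adjusted p = 0.00651) but not CDC25C (adjusted p = 0.124).

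TOP2A, the topoisomerase that untangles sister chromatids, had the highest CPM of all members, with 562 and 559 in Ctrl and 258 and 241 in PRMT3-KD libraries. The log2 fold change was -1.17 ± 0.0744 (SE, adjusted p = 0.0140, edgeR), and both groups were tight. NCAPH, the kleisin of condensin I, had 63.9 and 63.0 CPM in Ctrl and 42.6 and 28.4 CPM in PRMT3-KD libraries and was not called (log2 fold change -0.84, adjusted p = 0.0608, edgeR). DESeq2 called NCAPH lower (adjusted p = 0.00211). SSNA1 (ENSG00000176101, chr9:140083112-140084822 in GRCh37), a microtubule-binding protein of centrosomes and cilia, had 31.5 and 33.7 CPM in Ctrl and 14.3 and 12.2 CPM in PRMT3-KD libraries. Those groups did not overlap, with a log2 fold change of -1.30 ± 0.122 (SE, adjusted p = 0.0165, edgeR).

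The 24 members that were not called had log2 fold changes between -0.97 and -0.22 and adjusted p between 0.0534 and 0.411 by edgeR. Of these, 16 had an adjusted p under 0.1. Their median standard error was 0.167, against 0.119 for the called members, and their median difference between PRMT3-KD libraries 2 and 1 was -0.44 on the log2 scale, against -0.27. The called and uncalled members thus differed in the spread of the PRMT3-KD libraries as well as in the size of the change. A call weighs the change against its spread, so these differences follow in part from the split itself. Across the 57 members, the log2 fold change and the log10 of the Ctrl level in TPM had a Pearson correlation of 0.0011 and a Spearman correlation of 0.027, as a description across genes that share all 4 libraries. By TPM, Ctrl levels ran from 4.61 to 392 with a median of 72.6. CDC20, PTTG1, PRC1, UBE2C and TPX2 led in Ctrl libraries, and the same 5 genes led in PRMT3-KD libraries, with PTTG1 ahead of CDC20.

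Some of these counts can include reads of other loci. Exons of 12 members overlap a coding gene on the other strand, 3 overlap a coding gene on the same strand, and 13 have pseudogenes named after them. The strand used in counting is not given in the sources used here. FOXM1 is among the members with an overlap on the other strand, with 782 exonic bases shared with ITFG2, and CENPP shares 3720 with IPPK. Of the 32 members with none of these features, 16 were called lower. Copies under a name of their own, such as those of PTTG1, were not part of these counts.

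The other genes of mitosis moved less uniformly. Of 108 further genes in 8 lists, 103 were tested, and their median log2 fold change was -0.49. Estimates were negative for 93 of the 103, against 6523 of 13172 genes tested. By edgeR, 41 were called lower and 2 higher, against 8.91% and 8.39% of all genes tested. Calls in the lower direction included 4 of 20 other centromere and kinetochore genes, 1 of 4 checkpoint genes, 12 of 22 spindle and centrosome genes and 3 of 10 kinases and regulators. They also included 8 of 17 in a list of the anaphase-promoting complex and its regulators. That list holds FZR1, UBE2S and FBXO5, which are not subunits of the complex and were each called lower. Further calls were 8 of 17 in a list of cohesin, condensin and other chromosome genes, and 5 of 8 of cytokinesis. That chromosome list also holds MKI67, which was among its calls, and TOP2B, which was not called. NUSAP1, a spindle-bundling protein, had the largest called log2 fold change of these, -1.71 ± 0.164 (SE, adjusted p = 0.0170, edgeR). It was followed by the minus-end motor KIFC1 at -1.40, the cytokinesis kinase CIT at -1.24, the cohesin subunit SMC1A at -1.18 and, at -1.03 each, the condensin II subunit NCAPG2, the cytokinesis factor ECT2 and the MAD2-related MAD2L2. WEE1, the kinase that restrains mitotic entry by phosphorylating CDK1, rose by 0.93 (SE 0.0762, adjusted p = 0.0142, edgeR). KIF2A, a microtubule-depolymerising kinesin of the same family as the member KIF2C, rose by 0.43 (SE 0.0721, adjusted p = 0.0306, edgeR), and KIF2C fell by 0.77 on the same scale.

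**Figure D4:**
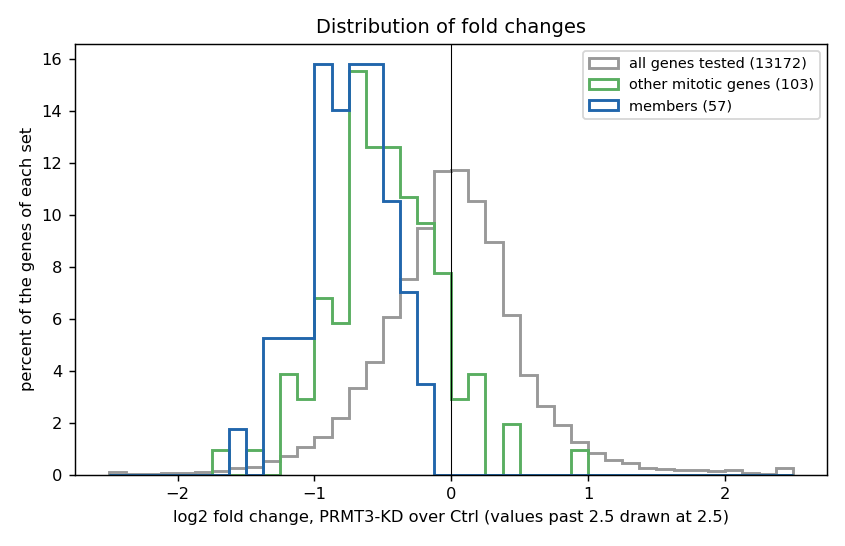
Distribution of log2 fold changes of PRMT3-KD over Ctrl (x axis) as percent of the genes of each set (y axis), for 57 members (blue), 103 other mitotic genes (green) and 13172 genes tested (grey). The members lie wholly under 0, with a median of -0.74, the other mitotic genes have a median of -0.49, and all genes centre on 0.0055.

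Promoter motifs of G2 and M phase genes were more frequent among the members than among all genes tested. The members were chosen by name as genes of mitosis, many of them known for such elements, so this excess is not independent of the choice. RefSeq promoters were found for 45 of the 57 members and 10103 of the genes tested, and AURKA, BIRC5, BUB3, CASC5, CENPH, CENPL, CENPM, FOXM1, SSNA1, TPX2, TTK and UBE2C were without an entry. In the 250 bases before the start, TTTGAA or TTCGAA on either strand was present in 16 of the 45 (35.6%) and in 9.87% of promoters of genes tested. CCAAT on either strand was present in 31 of the 45 (68.9%) and in 35.4% of promoters of genes tested. By position, 15 members (33.3%) had a CHR core that began within the last 50 bases before the start, as in the KIF11 and PLK1 sequences shown above, against 1.67% of the genes tested. This count includes cores that began before the start and ran past it, so it is not a subset of the 16 members above. CCAAT boxes were most frequent 51 to 100 bases before the start, in 44.4% of members and 16.6% of genes tested. A match to these letters is a description of the sequence and not evidence of binding.

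**Figure D5:**
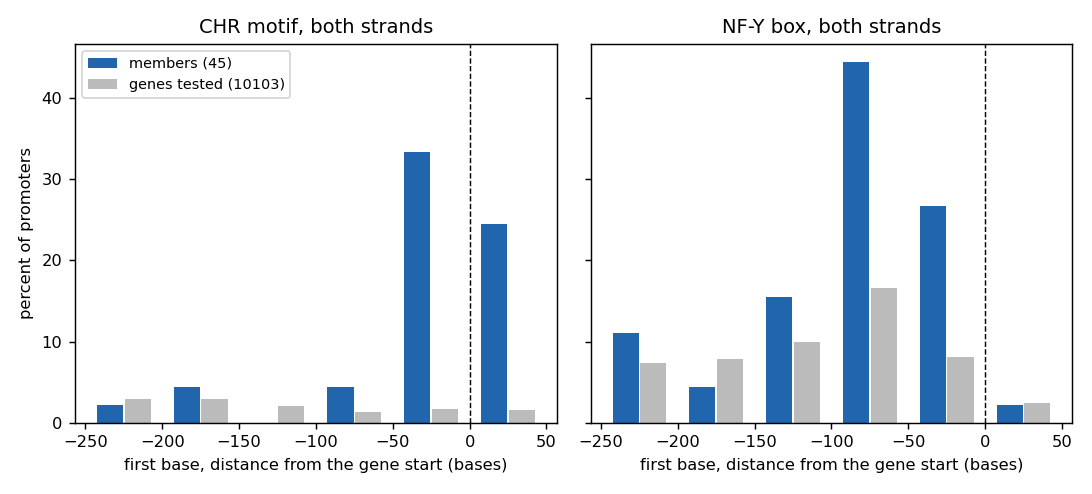
Percent of promoters (y axis) in which a CHR core (left) or the CCAAT box bound by NF-Y (right) begins in each 50-base bin, by distance from the gene start (x axis, dashed line at the start), for 45 members (blue) and 10103 genes tested (grey). CHR cores of members gather around the start, at 33.3% in the bin just before it and 24.4% in the bin just after it, and CCAAT boxes at 44.4% in the bin from 100 to 51 bases before it.

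Within the members, the change was set beside the presence of each motif, with no test. The median log2 fold change was -0.79 for the 16 members with a CHR core in the 250 bases, 11 of them called, and -0.77 for the 29 without, 17 of them called. Some of those 29 carry a core at or just after the start, and over the whole 300 bases the median was -0.75 for 28 members with a core (20 called) and -0.77 for 17 without (8 called). With a CCAAT box the median was -0.77 (21 of 31 called) and without it -0.75 (7 of 14 called). The 7-base sequence CAGCTCA was looked for because earlier results of these data pointed to it. It was present in the 3′ untranslated region of 8 of 57 members (14.0%). Among genes tested that had an annotated 3′ untranslated region, 17.4% had it. Members with it had a median of -0.81 with 4 of 8 called, and members without it a median of -0.74 with 29 of 49 called. Over the genes tested with such an annotated region, 355 of 2214 with it (16.03%, median -0.11) and 794 of 10536 without it (7.54%, median 0.03) were called lower. The length of the region was not taken into account, and these shares are not independent of the earlier results.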

How the data were processed

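The authors deposited whole-number counts per gene, not normalized, in 1 table with a column per library. The submitters' processing notes name CASAVA, TopHat, Cufflinks, DESeq2 and build hg19, and the study's methods give TopHat for alignment and Cufflinks for counting. Versions, annotation and strand are not given in the sources used here. Of 15576 rows, 1 duplicate was removed. Genes kept by filterByExpr (minimum count 10, minimum total 15) were tested in edgeR 4.0.16 (R 4.3.3) with TMM factors, glmQLFit and glmQLFTest and no block, with Benjamini-Hochberg adjustment over 13172 genes. Standard errors are the log2 fold change divided by the square root of F. CPM are on the TMM scale, and TPM use the length of the canonical transcript in GENCODE 44 lifted to GRCh37. Total counts of 24804250 to 29756313 per library set the precision of genes with few reads. Scripts were tested on simulated data. Alternatives used DESeq2 1.42.0 and limma 3.58.1. The members and lists were chosen with earlier results of these data known. In each role, text values follow a rule (up to 4 called members with the largest change, the 2 with the smallest, and genes the study names), and the other members were named after their values were seen. The same-numbered libraries had a correlation of deviations of 0.0379 and were not treated as pairs.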

Additional observations from a re-analysis of the deposited data

How the results depend on the processing

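No member changed direction under any alternative, and the number called higher stayed at 0. Of the 33 members called lower, 33 remained with DESeq2 and with limma-voom with group weights (46 called by each), with upper-quartile scaling (33), with both other filters on low counts (33 each) and with the replicate block (40), while 30 remained with library totals in place of scaling factors, where CDC20, CENPU and KIF4A were lost. The median log2 fold change lay between -0.76 and -0.73 in these fits. A total of 30 members were called in every one of these fits, and 10 (CDC25B, CDC25C, CENPH, CENPK, CENPL, CENPQ, KIF23, NEK2, PTTG1 and TTK) were called in none of them. The fits also differed in how many of all 13172 genes tested they called in either direction. That total was 2278 in the main fit, 2788 with DESeq2 and 2864 with limma-voom. With upper-quartile scaling it was 2304, and with library totals 1725. With a required change of over 2-fold, 10 members were called lower, against 2.16% of all genes tested. Leaving out a library moved the count called lower between 0 and 57 and the median between -0.92 and -0.58, and the group left with 1 library was then assumed to vary like the other. Over the whole 300 bases, a CHR core was present in 62.2% of members, 11.5% of genes tested and 16.4% of all promoters of the table, and a CCAAT box in 68.9%, 36.99% and 34.6%. In the 250 bases before the start, the shares of all promoters of the table were 14.3% and 32.0%. The split of members by motif over 300 bases was chosen after seeing the data. Degrons in the proteins were not analysed here.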
